A study of Mus musculus with 70 samples.

Results

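RNA of CD45+ cells from histotripsy-abscopal tumors was compared with that of CD45+ cells from control tumors 3 days after ablation. Histotripsy is focused ultrasound that breaks tissue apart mechanically without heating it, and a histotripsy-abscopal tumor is the untreated tumor opposite an ablated one. The mice were C57BL/6 animals, bought at 6 to 8 weeks of age, that carried B16F10 melanomas, a pigmented mouse tumor line, under the skin of both flanks. One tumor received partial histotripsy ablation or a sham procedure, and no other genotype or agent was named for any group. CD45, encoded by Ptprc, marks cells of blood origin, so the sorted fraction holds the immune cells of the tumor. Members were chosen by the labels alone, as the 7 abscopal and 4 control libraries of the CD45+ count table of day 3, which are 11 of 70 libraries in the series. The 6 CD45+ libraries of histotripsy-treated tumors from the same day entered the same fit. Groups were not randomized. The study used male and female mice, but each of the 17 CD45+ libraries of day 3 held 623 to 1877 counts of Xist and 0 of the Y-linked Ddx3y. The labels do not say which abscopal tumor shared a mouse with a treated tumor, nor which flank a control tumor came from, nor whether libraries of a group came from separate mice, so the p-values measure only the spread between these libraries.

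An untreated tumor can be reached by a treatment of a distant tumor through cells and signals carried in blood and lymph, which is what the word abscopal refers to. Monocytes enter melanomas along CC chemokines that bind Ccr2 and mature there into macrophages. Plasmacytoid dendritic cells are rare cells specialised in making type I interferon, while conventional dendritic cells carry antigen to T cells. Heat shock chaperones are induced within hours when proteins misfold or when cells are handled under stress, and immediate early genes answer most stimuli within minutes.

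Total counts ranged from 1039010 to 2448340 in control libraries and from 1104210 to 2824960 in abscopal libraries. Ptprc lay at 793 to 1076 counts per 1000000 counts of the library (CPM) in controls and at 813 to 1166 CPM in abscopal libraries, against a median of 0 in CD45- cells of the same day, so the label of the sort held in these libraries. Defining markers of other cells were at 0 in each abscopal library for Tek and Cldn5 (endothelium), Krt5, Krt14, Krt15 and Krtdap (keratinocytes) and Myh1 and Tnnc2 (muscle). Their lists were not at 0 as a whole. In abscopal libraries the 11 endothelial markers summed to 79.1 to 148 CPM (92.3 to 134 in controls and 38.6 to 138 in CD45- cells), the 11 keratinocyte markers to 29.9 to 50.7 CPM (33.7 to 42.5 in controls) and the 10 muscle markers to 9.06 to 18.8 CPM (10.6 to 16.4 in controls). Of 9 erythroid markers in the table only Alas2 was at 0 in each abscopal library, and the list summed to 91.2 to 1166 CPM in abscopal libraries and 76.6 to 1016 CPM in controls. No fibroblast marker was at 0 in each abscopal library, and the 12 summed to 83.4 and 148 CPM in replicates 1 and 4 against 9.91 to 37.1 CPM in the other abscopal libraries and 7.17 to 20.2 CPM in controls. No melanoma marker was at 0 in each abscopal library either. The summed level of 14 melanoma markers, 7 of which passed the filter on low counts, was 115 to 288 CPM in controls and 99.6 to 2408 CPM in abscopal libraries, where replicates 1 and 4 held 1263 and 2408 CPM, against 24597 to 38325 CPM in CD45- cells of day 3. Dct, which encodes a pigment enzyme, stood at 57.7, 58.4, 90.3 and 158 CPM in control replicates 1 to 4 and at 959 and 1544 CPM in abscopal replicates 1 and 4, while the other 5 abscopal libraries lay between 49.2 and 202 CPM. The rRNA gene CT010467.1 took 6.99% to 9.44% of the counts in controls and 7.88% to 16.0% in abscopal libraries, with the highest share in replicate 1. Melanoma and fibroblast markers thus move with replicates 1 and 4, and their part in the results was not tested.

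**Figure D1:**
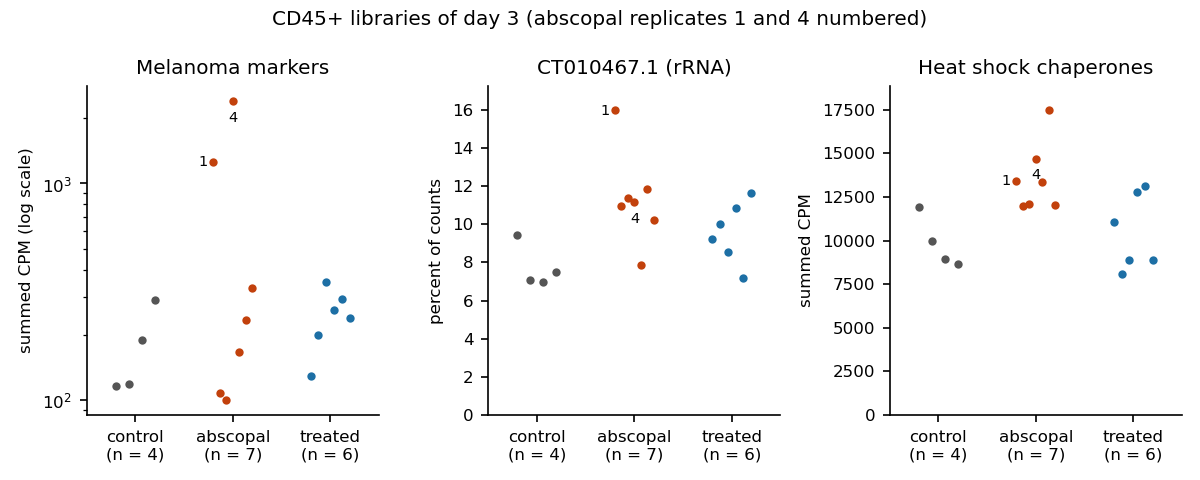
Each point is a CD45+ library of day 3, by group on the horizontal axis. The panels show the summed CPM of the 14 melanoma markers on a log scale, the percent of counts taken by the rRNA gene CT010467.1, and the summed CPM of the heat shock chaperones. Abscopal replicates 1 and 4, numbered, stand apart at 1263 and 2408 CPM of melanoma markers, and the 7 abscopal libraries lie at or above 12009 CPM of heat shock chaperones while the 4 controls lie at or below 11943 CPM.

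Counts were compared gene by gene with edgeR's quasi-likelihood test, over 10264 genes that passed its filter on low counts among the 55487 named genes of the table. At an adjusted p under 0.05, 0 genes (0%) differed between abscopal and control tumors, and the smallest adjusted p was 0.208. An unadjusted p under 0.05 was reached by 796 genes (7.76%), of which 507 (4.94%) were higher and 289 (2.82%) lower in abscopal tumors. When library totals replaced edgeR's TMM scaling, that split turned to 270 higher and 562 lower, while the median of all genes on the log2 scale moved from 0.01 to -0.08. Other tools gave other counts of called genes, namely 12 with DESeq2, 0 with limma-voom and 28 with limma-voom and sample quality weights. On CPM, which use library totals and not TMM scaling, the groups did not overlap for 42 genes (0.409%) higher in each abscopal library. They did not overlap for 132 genes (1.29%) that were lower in each abscopal library than in each control. TMM factors were 1.05 to 1.11 in controls and 0.99 to 1.07 in abscopal libraries. Overlap was not counted on TMM-scaled levels, here or for single genes below, so narrow gaps may depend on the scaling. Of all genes, 51.9% had a log2 fold change above 0. The 95% confidence interval of the log2 fold change reached a median of 0.479 to either side, and it stayed within 1 of 0 for 81.0% of genes. That share was 94.5% among genes with at least 100 CPM and 47.1% among genes under 10 CPM, so a change of more than 2-fold was outside the interval for most of the abundant genes.

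**Figure D2:**
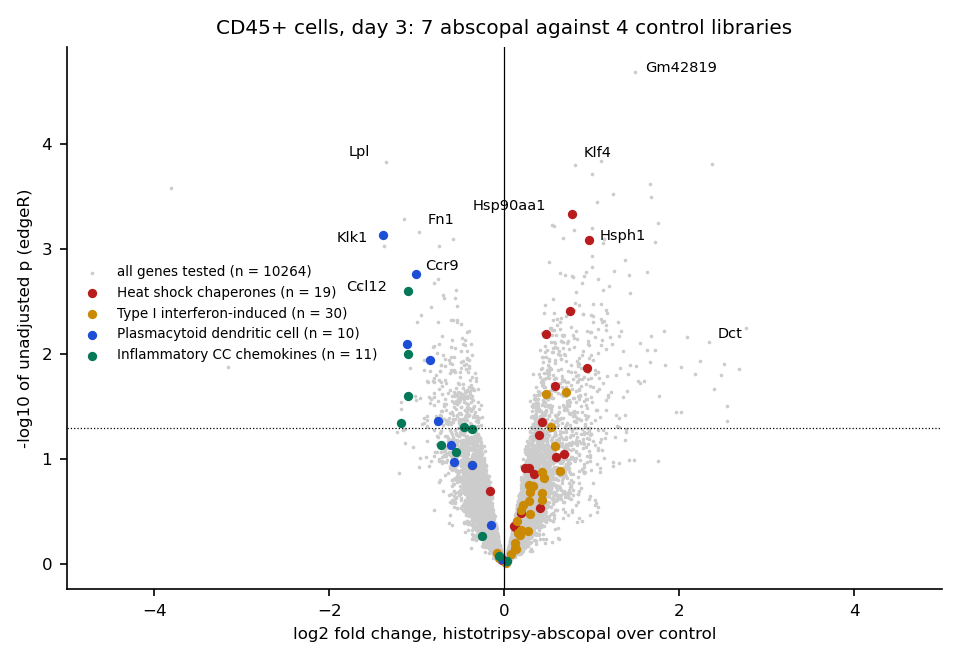
Each point is 1 of the 10264 genes tested, with the log2 fold change of histotripsy-abscopal over control on the horizontal axis and -log10 of the unadjusted p (edgeR) on the vertical axis. Coloured points mark the genes of 4 lists, and the dotted line is an unadjusted p of 0.05. The 10 plasmacytoid dendritic cell genes (blue) lie to the left of 0 and 17 of the 19 heat shock chaperones (red) to the right.

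Whole libraries were also compared by principal components of the 500 most variable genes. The first component held 39.4% of the variance and gave no separation of the groups larger than the spread between libraries (two-sided exact permutation test over 330 divisions, p = 0.236, adjusted p = 0.355 over 3 components). Abscopal replicates 1 and 4, at 33.1 and 18.0, were at its positive end, and controls spanned -12.5 to 3.77. The second component, with 17.5% of the variance, gave p = 0.742 in the exact permutation test. The third, with 9.77%, placed controls between -15.5 and -0.80 and abscopal libraries between -2.49 and 13.1 (exact permutation test, p = 0.0182, adjusted p = 0.0545).

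Genes of plasmacytoid dendritic cells were lower in abscopal tumors. Each of the 10 genes of this list that could be tested had a log2 fold change below 0, with a median of -0.68 beside 0.01 over all genes. At an unadjusted p under 0.05, 5 of the 10 were lower (against 2.82% of all genes) and 0 were higher. None passed after adjustment over all genes in edgeR with its filter on low counts. The list's mean log2 CPM stood at 5.40, 5.37, 5.22 and 5.39 in control replicates 1 to 4. In abscopal tumors it had a lowest value of 4.23, a median of 4.74 and a highest value of 5.07. Each of the 7 abscopal libraries thus lay below each control, and the 2 melanoma-rich libraries were the nearest to the controls. Without those 2 libraries the median log2 fold change was -0.93, and it ranged from -0.81 to -0.61 when each library was left out in turn. In bulk RNA, fewer cells of a type and less RNA of these genes per cell cannot be told apart, here and for the cell type lists that follow.

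Klk1 (chromosome 7 of GRCm38, 44225360 to 44229618, plus strand), a kallikrein-type protease gene, stood at 18.3, 19.8, 24.9 and 32.7 CPM in control replicates 1 to 4. Its level in abscopal tumors had a lowest value of 3.62, a median of 10.1 and a highest value of 13.6 CPM, so the groups did not overlap. The log2 fold change was -1.39 ± 0.352 (standard error, with an adjusted p = 0.339 from edgeR). Ccr9 (chromosome 9, 123678439 to 123784330, plus strand), the receptor for the gut chemokine Ccl25 and a marker of plasmacytoid dendritic cells, stood at 64.5, 48.5, 41.2 and 47.8 CPM in controls. In abscopal tumors Ccr9 lay at 14.5 to 34.9 CPM with a median of 22, again without overlap, and its log2 fold change was -1.01 ± 0.281 (standard error, with an adjusted p = 0.443 from edgeR). Both genes passed the threshold in the fit with sample quality weights and in edgeR with no filter on low counts. They did not pass in edgeR with its filter.

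The other members were lower with some overlap. Siglech, a sialic acid-binding surface receptor that identifies mouse plasmacytoid dendritic cells, stood at 39.5, 46.9, 46.4 and 46.6 CPM in controls and at 13.4 to 46.9 CPM in abscopal tumors, with a median of 24.3 and a log2 fold change of -0.61 (-1.04 without the melanoma-rich libraries). Of its 7 abscopal values, 5 lay below each control, and the 2 that did not were those of the melanoma-rich replicates 1 and 4, at 43.3 and 46.9 CPM. Ly6d, a surface protein of lymphoid-type precursors, had 36.6, 48.0, 51.7 and 61.7 CPM in controls and 12.9 to 40.1 CPM in abscopal tumors (median 24.4, log2 fold change -0.85). Cox6a2, a subunit of cytochrome oxidase, had 18.3, 14.3, 16.4 and 19.2 CPM in controls and 3.10 to 17.5 CPM in abscopal tumors (median 5.47, log2 fold change -1.11, or -1.71 without the melanoma-rich libraries), where 6 of 7 libraries lay below each control. Pacsin1, which acts in membrane traffic, had a log2 fold change of -0.75. Tcf4, the transcription factor that sets plasmacytoid dendritic cell identity and is also used by other cells, had a log2 fold change of -0.03, and Runx2 one of -0.15.

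**Figure D3:**
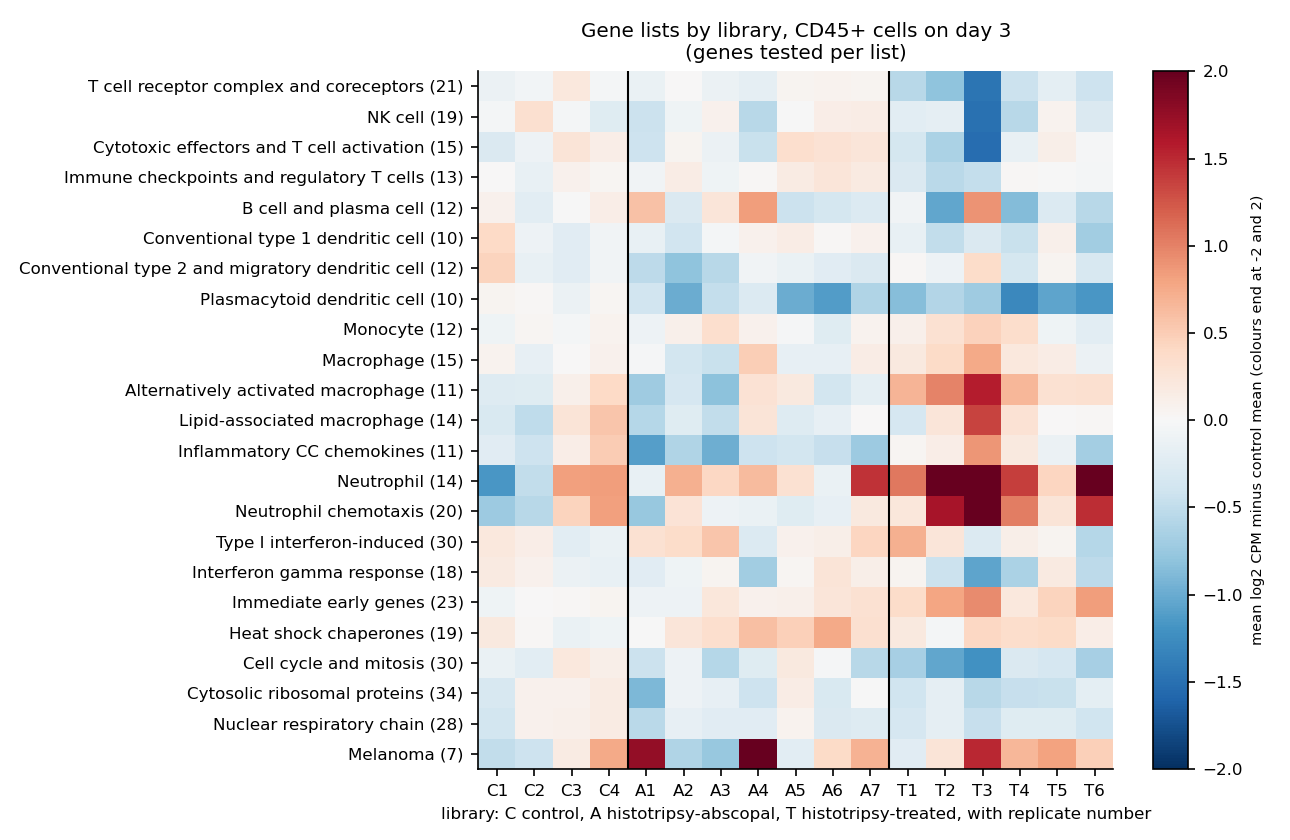
Rows are 23 gene lists with the number of genes tested in parentheses, columns the 17 CD45+ libraries of day 3, and the colour gives a library's mean log2 CPM of the list minus the mean of the 4 controls. The plasmacytoid dendritic cell row is below the control mean in each abscopal and each treated library. The neutrophil rows have their highest values in treated libraries, though treated replicates 1 and 5 lie within the range of the other groups in both rows. In the melanoma row, abscopal replicates 1 and 4 stand out.

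Conventional dendritic cell genes differed less. For type 2 and migratory dendritic cells, 10 of 12 tested genes were below 0 with a median of -0.42, and 3 of 12 were lower at an unadjusted p under 0.05 (against 2.82% of all genes), namely Clec10a, Ccl17 and Itgax. Itgax, the integrin CD11c, stood at 244, 173, 183 and 171 CPM in controls and at 113 to 167 CPM in abscopal tumors (median 145), without overlap and with a log2 fold change of -0.37 (edgeR, adjusted p = 0.636), which was -0.22 without control replicate 1. Ccl17, a chemokine made by dendritic cells, stood at 38.5, 19.8, 15.0 and 30.2 CPM in controls and at 7.33 to 33.8 CPM in abscopal tumors (median 12.9, log2 fold change -0.72). Its groups overlapped, with 5 of 7 abscopal libraries below each control and replicate 5 high. Of 10 type 1 dendritic cell genes, 8 were below 0 with a median of -0.12 (0.047 without control replicate 1), and 0 reached an unadjusted p under 0.05.

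Inflammatory CC chemokines had the next lowest median of the 41 lists. Of 11 tested ligands and receptors, 10 had a log2 fold change below 0, the median was -0.56, and 5 were lower at an unadjusted p under 0.05 (against 2.82% of all genes). Ccl12, a ligand of Ccr2, stood at 46.2, 34.7, 64.8 and 55.1 CPM in control replicates 1 to 4 and at 12.4 to 32.5 CPM in abscopal tumors (median 23.9). Each abscopal library lay below each control, and the log2 fold change was -1.10 ± 0.320 (standard error, with an adjusted p = 0.501 from edgeR). Ccl7, another Ccr2 ligand, stood at 94.3, 99.8, 189 and 269 CPM in controls and at 31.7 to 104 CPM in abscopal tumors (median 79.1), with 6 of 7 below each control and a log2 fold change of -1.10. Ccl2, the main monocyte attractant, stood at 208, 275, 466 and 685 CPM in controls and at 35.6 to 279.7 CPM in abscopal tumors (median 188, log2 fold change -1.10, or -0.73 without control replicate 4). For both Ccl2 and Ccl7, control replicates 3 and 4 were high and replicates 1 and 2 were close to the upper abscopal values. Ccl4, an attractant of T cells and monocytes, lay at 1439.8, 1770.3, 1511 and 2215 CPM in controls and at 895 to 1375 CPM in abscopal tumors without overlap (median 1199, log2 fold change -0.46). The receptor Ccr2 itself stood at 585, 651, 479 and 547 CPM in controls and at 335 to 524 CPM in abscopal tumors (median 399, log2 fold change -0.37), with 6 of 7 below each control. Ccl3 and Ccr1 had log2 fold changes of -0.06 and 0.03.

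Among macrophage genes the differences were uneven. The general macrophage list had a median of -0.03 over 15 genes (-0.13 without the melanoma-rich libraries and 0.075 without control replicate 1). The monocyte list had one of -0.06 over 12 (0.007 without control replicate 4 and 0.14 with the replicate number as a block). Lpl (chromosome 8, 68880491 to 68907448, plus strand), lipoprotein lipase, a marker of lipid-laden macrophages, stood at 233, 192, 431 and 554 CPM in controls and at 66.1 to 195 CPM in abscopal tumors (median 122). It lay below each control in 6 of 7 abscopal libraries, with a log2 fold change of -1.35 ± 0.293 (standard error, edgeR's adjusted p = 0.323), and it passed the threshold with DESeq2 and in the fit with quality weights. Fn1 (chromosome 1, 71585520 to 71653200, minus strand), fibronectin, which monocytes and macrophages secrete, stood at 432, 452, 701 and 965 CPM in controls. In abscopal tumors Fn1 lay at 250.2 to 421 CPM (median 285) without overlap, and the log2 fold change was -0.97 ± 0.245 (standard error, with an adjusted p = 0.339 from edgeR). The fatty acid transporter gene Cd36 stood at 69.3, 64.0, 189.7 and 243 CPM in controls and at 34.3 to 88.1 CPM in abscopal tumors (median 67.0, log2 fold change -1.01, or -0.61 without control replicate 4), so its groups overlapped in control replicates 1 and 2. Of the 14 tested genes of lipid-associated macrophages, 9 were below 0 and the median was -0.25, which was -0.015 without control replicate 4. Of its members, the lipid-sensing receptor gene Trem2 was at 0.24 and the lipid carrier gene Apoe at 0.51, and Apoe was at 0.23 without abscopal replicate 4 and at 0.20 without both melanoma-rich libraries.

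Markers of alternatively activated macrophages went apart in opposite directions. Of 11 tested genes, 4 were lower (against 2.82% of all genes) and 2 higher (against 4.94%) at an unadjusted p under 0.05. The median was -0.49, and -0.92 without the melanoma-rich libraries. Arg1, arginase, which depletes the arginine that T cells need, stood at 216, 279, 773 and 1302 CPM in controls and at 118 to 356 CPM in abscopal tumors (median 311, log2 fold change -1.18, or -0.57 without control replicate 4). Its groups overlapped, since control replicates 1 and 2 lay within the abscopal range. The mannose receptor gene Mrc1 stood at 38.5, 51.8, 78.5 and 81.3 CPM in controls and at 19.9 to 53.8 CPM in abscopal tumors (median 29.8, log2 fold change -0.83). Chil3, a chitinase-like protein also called Ym1 that monocytes and macrophages secrete, stood at 119, 123, 179 and 185 CPM in controls and at 155 to 423 CPM in abscopal tumors (median 369.5). Chil3 was above each control in 6 of 7 libraries, with a log2 fold change of 1.16 ± 0.358 (standard error, edgeR's adjusted p = 0.554). Retnla, a secreted protein induced by interleukin-4, stood at 9.62, 18.7, 7.20 and 2.45 CPM in controls and at 2.72 to 147 CPM in abscopal tumors (median 13.4, log2 fold change 1.96), with its highest value in replicate 5 and 3 of 7 libraries above each control. Without abscopal replicate 5 its log2 fold change was 0.84.

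The control libraries themselves differed in myeloid genes, and in the same split as the genes above. The summed level of neutrophil markers was 1066 and 1678 CPM in control replicates 1 and 2 and 3613 and 4016 CPM in replicates 3 and 4, and abscopal libraries lay between 1876 and 4473 CPM. S100a8, a calcium-binding protein abundant in neutrophils, stood at 193, 464, 1334 and 1536 CPM in controls and at 448 to 1458 CPM in abscopal tumors (median 843, log2 fold change 0.17 with a standard error of 0.645). Leaving out 1 library at a time moved that log2 fold change from -0.16 to 0.58, so no direction can be given. Cxcl2, a neutrophil attractant, stood at 1577, 1930.2, 4027 and 5074 CPM in controls and at 1669 to 4032 CPM in abscopal tumors (median 2879.9, log2 fold change -0.03). The platelet chemokine gene Ppbp was at 2.89, 6.62, 40.6 and 189.5 CPM in controls and at 1.94 to 13.5 CPM in abscopal tumors. For Lpl, Fn1, Cd36, Arg1, Mrc1, Ccl2 and Ccl7 the same control replicates 3 and 4 were high, and the part of this split in their differences was not tested. Without control replicate 4 the log2 fold changes of Lpl, Fn1, Mrc1 and Ccl7 were -1.05, -0.71, -0.68 and -0.75.

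**Figure D4:**
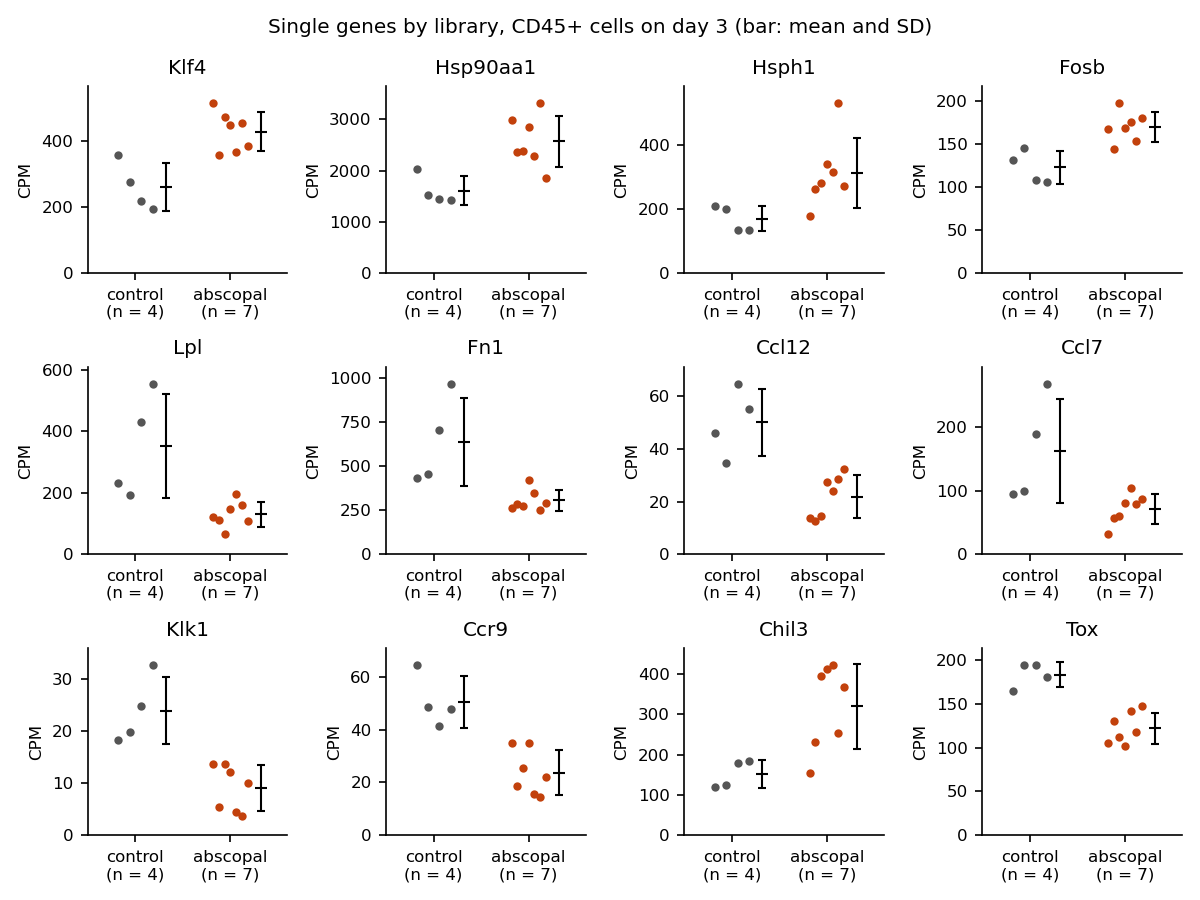
Each panel is a gene and each point a CD45+ library of day 3, with the level in CPM on the vertical axis. Bars give the mean and SD of 4 control and 7 abscopal libraries. Klf4 is higher in each abscopal library than in each control, and Klk1, Ccr9, Fn1, Ccl12 and Tox are lower. Lpl and Ccl7 overlap with the lower control replicates.

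Heat shock chaperones were higher in abscopal tumors. Of 19 tested genes, 17 had a log2 fold change above 0, beside 51.9% of all genes, and the median was 0.40. At an unadjusted p under 0.05, 7 of 19 were higher (against 4.94% of all genes) and 0 lower. None passed the adjustment in edgeR with its filter on low counts, and Hsph1, Dnajb1 and Hspa1a passed it with no filter. The summed level of the list lay between 8634 and 11943 CPM in controls and between 12009 and 17470 CPM in abscopal tumors, without overlap by a narrow margin. The mean log2 CPM of the list, which weights its genes alike and is TMM-scaled, was 7.54, 7.37, 7.22 and 7.27 in control replicates 1 to 4. It was 7.34 to 8.11 in abscopal tumors (median 7.68). On that scale 6 of 7 libraries lay above each control, and the exception was replicate 1. The median log2 fold change was 0.42 without the 2 melanoma-rich libraries and ranged from 0.32 to 0.49 when each library was left out in turn. Treated tumors lay between 8086 and 13141 CPM in the summed level.

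Hsp90aa1 (chromosome 12, 110690605 to 110702728, minus strand), the inducible cytosolic Hsp90, stood at 2027, 1529, 1452 and 1429 CPM in control replicates 1 to 4 and at 1863 to 3321 CPM in abscopal tumors (median 2375). It was above each control in 6 of 7 libraries, with control replicate 1 high among controls, and the log2 fold change was 0.78 ± 0.188 (standard error, with an adjusted p = 0.339 from edgeR). Hsph1 (chromosome 5, 149614287 to 149636376, minus strand), an Hsp110 that exchanges nucleotide on Hsp70, stood at 208, 200.1, 135 and 136 CPM in controls and at 178 to 530.0 CPM in abscopal tumors (median 282). It was above each control in 6 of 7 libraries, with a log2 fold change of 0.97 ± 0.249 (standard error, edgeR's adjusted p = 0.339). Both genes passed the threshold with DESeq2 and in the fit with quality weights. Dnajb1, an Hsp40 partner of Hsp70, stood at 329, 294, 186 and 187 CPM in controls and at 235 to 571 CPM in abscopal tumors (median 382, log2 fold change 0.75). Hspa1a, the stress-induced Hsp70, stood at 1175, 730.5, 633 and 699.7 CPM in controls and at 574 to 2700.0 CPM in abscopal tumors (median 1556, log2 fold change 0.95), with 4 of 7 above each control and replicate 1 below. Its counts and those of the near-identical Hspa1b are uncertain, since reads could be split between them. Bag3 and Dnaja1 had log2 fold changes of 0.58 and 0.48. The mitochondrial chaperone gene Hspa9, at -0.17, and the Hsp90 co-chaperone gene Stip1, at -0.02, were the members below 0.

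Promoters of these genes were searched for the heat shock element, taken as GAA, TTC and GAA with 2 bases of any kind between neighbouring triplets, on either strand, in the 250 bases before the RefSeq start. It was found in 2 of the 14 heat shock genes with a promoter in the table, Hspd1 and Hspe1, and in 0.514% of 27025 promoters of the same length. The promoter of Hspd1, which encodes the mitochondrial chaperonin Hsp60, is printed because it is the stretch that this gene and the neighbouring Hspe1 share, at chr1:55087933-55088182 of GRCm38.p6 on the minus strand (RefSeq), with 2 overlapping matches in capitals, 144 to 127 bases before the start.

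Hspd1: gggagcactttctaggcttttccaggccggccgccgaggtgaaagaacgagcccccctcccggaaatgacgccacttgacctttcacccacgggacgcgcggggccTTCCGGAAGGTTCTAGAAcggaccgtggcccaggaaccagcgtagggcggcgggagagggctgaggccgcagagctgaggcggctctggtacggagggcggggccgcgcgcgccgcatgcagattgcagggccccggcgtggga

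Hspd1 itself stood at 84.7, 81.0, 117 and 98.4 CPM in controls and at 82.1 to 149 CPM in abscopal tumors (median 107, log2 fold change 0.40). A match is a stretch of letters and not a measured binding site, and other spellings of the element were not searched.

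Immediate early genes were even as a list, with a few exceptions. Of 23 tested genes, 12 were above 0 and the median was 0.02, beside 0.01 over all genes, while 4 of 23 were higher at an unadjusted p under 0.05 (against 4.94% of all genes). Klf4 (chromosome 4, 55527143 to 55532466, minus strand), a transcription factor of myeloid differentiation, stood at 358, 276, 219.8 and 194 CPM in controls and at 359 to 516 CPM in abscopal tumors (median 449). Each abscopal library was above each control, though the lowest, replicate 2, was within 1 CPM of control replicate 1. The log2 fold change was 0.81 ± 0.176 (standard error, with an adjusted p = 0.323 from edgeR), and Klf4 passed with DESeq2 and in the fit with quality weights. Fosb stood at 131, 146, 109 and 106 CPM in controls and at 144 to 197 CPM in abscopal tumors (median 168, log2 fold change 0.56), with 6 of 7 above each control. Jund and Fos, the other members of the AP-1 transcription factor family past that p, had log2 fold changes of 0.67 and 0.47. Egr1, Egr3 and Nr4a1, induced by the same kinds of stimuli, had log2 fold changes of -0.03, -0.06 and -0.32.

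Type I interferon-induced genes leaned higher by a small amount. Of 30 tested genes, 27 were above 0 with a median of 0.27, and 3 (against 4.94% of all genes) were higher at an unadjusted p under 0.05. The list's mean log2 CPM stood at 5.65, 5.58, 5.24 and 5.31 in control replicates 1 to 4 and 5.18 to 6.01 in abscopal tumors (median 5.75). The groups overlapped, with 4 of 7 abscopal libraries above each control and replicate 4 below each control. Oas2, which makes the 2-5A messenger that activates RNase L, stood at 23.1, 22.1, 11.1 and 13.1 CPM in controls and at 16.4 to 34.4 CPM in abscopal tumors (median 27.5, log2 fold change 0.70). Oasl2 had 47.2, 67.3, 70.6 and 64.1 CPM in controls and 59.1 to 107 CPM in abscopal tumors (median 79.7, log2 fold change 0.48). Isg15, a ubiquitin-like modifier, had 379, 538, 346 and 388 CPM in controls and 177 to 561 CPM in abscopal tumors (median 379.9, log2 fold change -0.06). Bst2, which is both an interferon-induced gene and a plasmacytoid dendritic cell marker, had 284, 400.3, 261 and 340.2 CPM in controls and 168 to 285 CPM in abscopal tumors (median 245, log2 fold change -0.37, or -0.25 without control replicate 2). The members that were not above 0 were Isg15, Bst2 and Usp18.

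The interferon-stimulated response element, taken as a pair of GAAA with 2 bases of any kind between, on either strand, was found before 11 of the 22 interferon-induced genes with a promoter in the RefSeq table and before 3.46% of all promoters. The promoter of Ddx60, an RNA helicase gene and the third member past an unadjusted p of 0.05, is printed because it holds 2 matches near the start, at chr8:61927837-61928086 of GRCm38.p6 on the plus strand, with the matches in capitals, 53 to 10 bases before the start.

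Ddx60: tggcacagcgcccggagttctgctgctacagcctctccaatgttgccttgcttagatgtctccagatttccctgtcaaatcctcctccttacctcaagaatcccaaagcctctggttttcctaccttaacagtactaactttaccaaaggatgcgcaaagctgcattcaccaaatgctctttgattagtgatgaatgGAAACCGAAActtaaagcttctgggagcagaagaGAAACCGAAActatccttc

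Ddx60 stood at 15.4, 14.3, 11.1 and 15.5 CPM in controls and at 12.4 to 32.3 CPM in abscopal tumors (median 18.4, log2 fold change 0.53, or 0.35 without abscopal replicate 1), with 4 of 7 above each control. Isg15 and Bst2, which have the same element before their starts, had log2 fold changes below 0.

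T cell genes were close to even. The T cell receptor list had 12 of 21 tested genes above 0 with a median of 0.01, and 0 reached an unadjusted p under 0.05. Its mean log2 CPM was 6.76 to 7.09 in controls and 6.69 to 6.94 in abscopal tumors. Cd3e, a subunit of the T cell receptor complex, stood at 121, 112, 196 and 137 CPM in controls and at 106 to 149 CPM in abscopal tumors (median 146, log2 fold change 0.06 with a 95% confidence interval from -0.41 to 0.52). Cd8a stood at 182, 237, 404 and 315 CPM in controls and at 138 to 262 CPM in abscopal tumors (median 195), with a log2 fold change of -0.43 (-0.23 without control replicate 3) and an interval from -1.04 to 0.19. Cd4 had a log2 fold change of 0.22 (interval from -0.40 to 0.83, and 0.09 without control replicate 3). The cytotoxic effector list had a median of 0.01 over 15 genes, with granzyme B (Gzmb) at -0.42 (interval from -1.45 to 0.60) and interferon gamma (Ifng) at -0.08 (interval from -0.65 to 0.48). Gzmb was at -0.07 without the melanoma-rich libraries and at -0.11 without control replicate 4.

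Some genes of the cytotoxic effector list and of the checkpoint and regulatory T cell list were also read singly, and none of them passed the adjustment in edgeR. Cd69, an early activation marker that also holds lymphocytes in tissue, stood at 100.1, 138, 93.5 and 89.0 CPM in controls and at 101 to 220.3 CPM in abscopal tumors (median 157, log2 fold change 0.64, adjusted p = 0.554 with edgeR), with 5 of 7 above each control. Foxp3, the transcription factor of regulatory T cells, stood at 7.70, 7.17, 9.16 and 4.08 CPM in controls and at 7.43 to 17.4 CPM in abscopal tumors (median 11.4, log2 fold change 0.91, adjusted p = 0.570 with edgeR), also with 5 of 7 above each control. Tox, a transcription factor of exhausted T cells that NK cells and other lymphocytes also use, stood at 165, 194, 194 and 180.1 CPM in controls and at 101 to 147 CPM in abscopal tumors (median 117). Its groups did not overlap, and the log2 fold change was -0.49 (adjusted p = 0.631, edgeR). Pdcd1, which encodes PD-1, stood at 64.5, 78.8, 147 and 123 CPM in controls and at 53.3 to 132 CPM in abscopal tumors (median 97.2, log2 fold change -0.06). Icos, a costimulatory receptor, had a log2 fold change of 0.42. Of the 13 checkpoint and regulatory T cell genes tested, 10 were above 0 with a median of 0.09, and 1 was higher (against 4.94% of all genes) and 1 lower (against 2.82%) at an unadjusted p under 0.05.

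NK cell genes had a median of -0.13 over 19 genes, which turned to 0.02 with 10 of 19 above 0 when the melanoma-rich libraries were left out. Klrd1, which encodes CD94, was the 1 member past an unadjusted p of 0.05. It stood at 97.2, 165, 142 and 152 CPM in controls and at 27.2 to 141 CPM in abscopal tumors (median 80.7, log2 fold change -0.66), with the lowest values in the melanoma-rich replicates 1 and 4, at 27.2 and 42.7 CPM. Without those libraries its log2 fold change was -0.37 (edgeR, unadjusted p = 0.153). The activating receptor genes Ncr1 and Klrb1c had log2 fold changes of -0.24 (-0.04 without control replicate 2) and 0.09. B cell and plasma cell genes had a median of 0.13 over 12 genes, which turned to -0.46 without the melanoma-rich libraries. Their mean log2 CPM was 4.71 to 5.04 in controls and 5.49 and 5.75 in abscopal replicates 1 and 4, while the other 5 abscopal libraries lay between 4.48 and 5.15. The 2 libraries with melanoma RNA were thus also those with the highest B cell score.

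Genes of cell growth leaned lower by small amounts. Cytosolic ribosomal protein genes were below 0 in 30 of 34 cases with a median of -0.20, which was -0.097 without the melanoma-rich libraries, and 0 reached an unadjusted p under 0.05. Nuclear genes of the respiratory chain were below 0 in 26 of 28 cases with a median of -0.19, and cell cycle genes in 26 of 30 cases with a median of -0.16. Ube2c, a ubiquitin-conjugating enzyme of mitosis, and Cdk1, the kinase that drives it, were the 2 of 30 cell cycle genes past an unadjusted p of 0.05 (against 2.82% of all genes), with log2 fold changes of -0.52 and -0.63. Mki67, a proliferation marker, stood at 81.8, 61.7, 65.4 and 68.2 CPM in controls and at 39.4 to 86.9 CPM in abscopal tumors (median 67.6, log2 fold change 0.06). Antigen presentation genes had medians of -0.15 over 18 MHC class I genes and -0.16 over 14 MHC class II genes, the latter at 0.081 without control replicate 1. Interferon gamma response genes had a median of -0.05 over 18 genes, which turned to 0.075 with 13 of 18 above 0 without the melanoma-rich libraries and to 0.058 without control replicate 1. Toll-like receptors and adaptors had one of -0.01 over 18. The glutathione and ferroptosis list had a median of 0.01 over 22 genes, with the cystine transporter gene Slc7a11 at 52.9, 82.7, 136 and 176 CPM in controls and at 82.8 to 202 CPM in abscopal tumors (median 115, log2 fold change 0.26, or 0.05 without control replicate 1).

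Among all genes with at least 10 CPM, those with the smallest p included genes outside the lists. Zcchc7, a zinc finger protein of RNA surveillance, stood at 72.2, 70.0, 79.8 and 86.2 CPM in controls and at 92.5 to 123 CPM in abscopal tumors (median 103, log2 fold change 0.54). Abl2, a tyrosine kinase that remodels actin, stood at 52.0, 53.5, 54.3 and 63.3 CPM in controls and at 68.7 to 89.9 CPM in abscopal tumors (median 77.5, log2 fold change 0.57). Hprt, an enzyme of purine salvage, stood at 135, 139, 155 and 155 CPM in controls and at 60.2 to 108 CPM in abscopal tumors (median 87.8, log2 fold change -0.59). The groups did not overlap for these 3 genes, and each of them passed the threshold with DESeq2. Within the list of Tnf and NF-kB feedback genes, Tnip3, an inhibitor of NF-kB signaling, stood at 105, 104, 105 and 118 CPM in controls. In abscopal tumors Tnip3 lay at 58.6 to 79.7 CPM (median 69.9, log2 fold change -0.54), again without overlap. That list as a whole had 16 of 23 tested genes above 0, with a median of 0.15. Etv5, an ETS transcription factor, stood at 12.5, 13.8, 17 and 18.8 CPM in controls and at 5.31 to 11.9 CPM in abscopal tumors (median 5.80, log2 fold change -1.14). The smallest p of all belonged to Gm42819 (chromosome 3, 98030687 to 98035807, plus strand), a transcript of uncertain status with 8.66, 16.5, 3.92 and 8.17 CPM in controls and 19.6 to 30.4 CPM in abscopal tumors (median 25.3, log2 fold change 1.49, adjusted p = 0.208 with edgeR). Gm15564, an antisense RNA gene, had a log2 fold change of -3.81 that rested on control replicate 3, at 3442 CPM against 27.4 to 48.5 CPM in the other controls, and it was 0.65 without that library.

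Treated tumors were then set against abscopal tumors of the same day. The contrast itself has no control library, but the controls entered the scaling, the filter and the estimate of spread of the fit, and 365 genes in place of 558 were called with only the 2 groups in it. Of 10264 genes, 558 (5.44%) were called, 500 (4.87%) higher in treated tumors and 58 (0.565%) higher in abscopal tumors (adjusted p under 0.05, edgeR). Treated replicate 3 stood apart, with a summed level of neutrophil markers of 35182 CPM. Without it 264 genes were called, 252 higher in treated and 12 higher in abscopal tumors. Neutrophil genes were higher in treated tumors, with 10 of 14 tested genes called and a median log2 fold change of 2.03. S100a8 stood at 796 to 14404 CPM in treated tumors, and its log2 fold change over abscopal tumors was 2.52 (adjusted p = 0.0126, edgeR). Cxcl2 stood at 4053 to 22628 CPM in treated tumors, with a log2 fold change of 2.16 (edgeR, adjusted p = 0.00325). Slc7a11 was higher in treated tumors by 2.29 on the log2 scale (adjusted p = 0.00105, edgeR) and Tnf by 1.41 (adjusted p = 0.00329, edgeR). Of the 20 neutrophil chemotaxis genes, 15 were called higher in treated tumors, and of the 23 immediate early genes 8.

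Of the 41 lists, the T cell receptor list was the only one with more than 1 gene called higher in abscopal than in treated tumors, 5 of 21 (against 0.565% of all genes), with a median log2 fold change of treated over abscopal of -0.55. They were Bcl11b, a T cell transcription factor, the costimulatory receptor genes Cd28 and Cd27, and the receptor chain genes Trac and Cd247. Over all genes, the number called higher in abscopal tumors was 12 without treated replicate 3 and 137 without treated replicate 5. Calls of these T cell genes in those fits were not examined. Bcl11b stood at 81.2 to 111 CPM in abscopal tumors and at 31.3 to 68.1 CPM in treated tumors, without overlap, and treated tumors were lower by a log2 fold change of -0.70 (edgeR, adjusted p = 0.00415). Cxcr6, a chemokine receptor of tissue T cells, stood at 84.9 to 149 CPM in abscopal tumors and 17.5 to 83.7 CPM in treated tumors (log2 fold change -0.97, adjusted p = 0.0103, edgeR). Since CPM are shares of a library, a higher share of neutrophil RNA in treated tumors lowers other shares, and how far this moved the T cell genes was not tested.

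Lists described above were also read for treated against abscopal tumors, by medians and counts of called genes. No list was tested. For plasmacytoid dendritic cell genes the median of treated over abscopal was -0.24 with 0 of 10 called (against 5.44% of all genes). The medians over control were -0.68 in abscopal and -1.08 in treated tumors, 2 comparisons that share the 4 control libraries. For the inflammatory CC chemokines the median of treated over abscopal was 0.92. Of 11 genes, 2 were called higher in treated tumors (against 4.87% of all genes), Ccl3 and Ccr1. The medians over the shared controls were -0.56 in abscopal and 0.27 in treated tumors. Markers of alternatively activated macrophages had a median of 1.02 with 3 of 11 called higher in treated tumors (against 4.87% of all genes). Among them were Mrc1 at 1.31 (adjusted p = 0.00605, edgeR) and Clec10a at 0.87 (adjusted p = 0.0356, edgeR). Fn1 was higher in treated than abscopal tumors by 0.88 on the log2 scale (adjusted p = 0.0207, edgeR), while Lpl, at 0.71, was not called. For heat shock chaperones the median was -0.21 with 1 of 19 called (against 5.44% of all genes), Hspa4l, which was higher in treated tumors. Klf4 had a log2 fold change of 0.03 between treated and abscopal tumors.

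**Figure D5:**
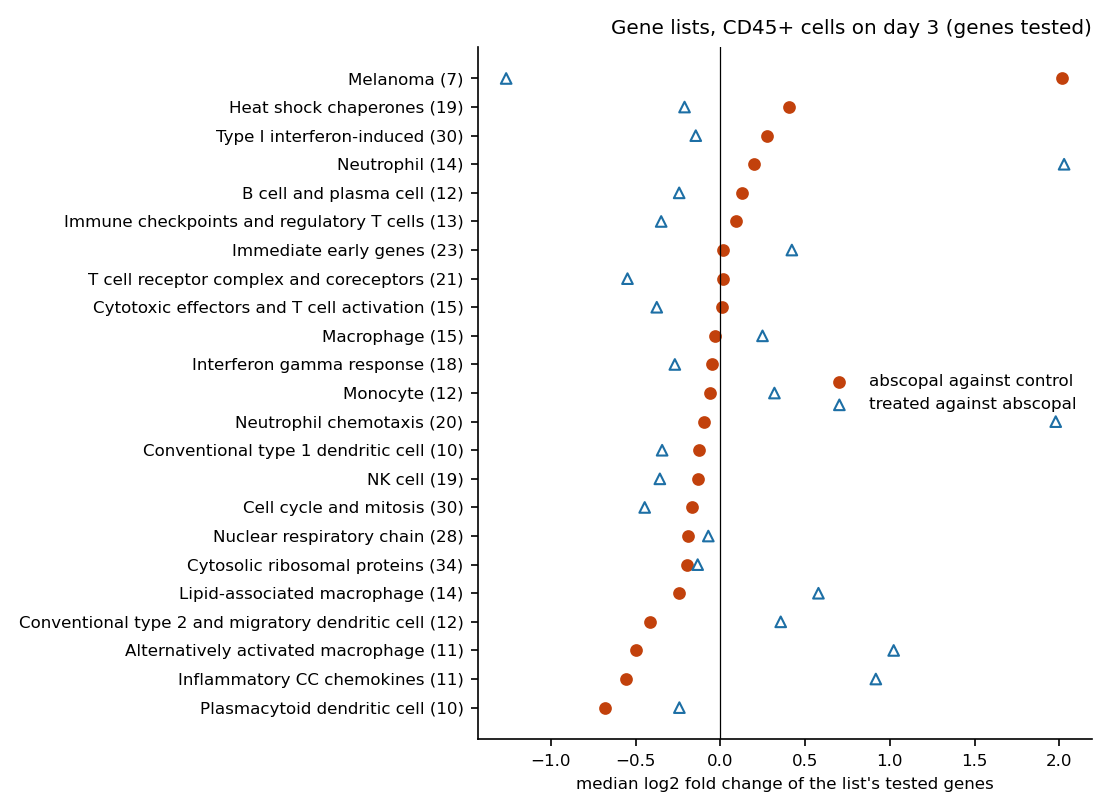
Each row is a gene list with its number of tested genes, and the horizontal axis gives the median log2 fold change of its genes, for abscopal against control (filled circles) and treated against abscopal (open triangles) on day 3. The plasmacytoid dendritic cell and CC chemokine lists have the lowest circles, at -0.68 and -0.56, and the neutrophil list has a circle at 0.20 and a triangle at 2.03. The neutrophil circle is -0.04 without control replicate 1 and 0.51 without control replicate 4. The melanoma circle at 2.01 rests on abscopal replicates 1 and 4 and is 0.01 without them.

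The difference between abscopal and control tumors was compared between day 3 and day 7 in a joint fit of both days. Of 11251 genes, 0 differed in effect at an adjusted p under 0.05 (0%, edgeR, smallest adjusted p 0.0627), 733 (6.51%) had an unadjusted p under 0.05, and DESeq2 called 1. On day 7 alone, 0 genes (0%) were called by edgeR between abscopal and control tumors and 670 (5.96%) had an unadjusted p under 0.05. In that joint fit the plasmacytoid dendritic cell median was -0.69 on day 3 and 0.09 on day 7, and 5 of its 10 genes had an unadjusted p under 0.05 for the difference between days. The CC chemokine median was -0.57 on day 3 and -0.07 on day 7, with 1 of 11 genes past that p. Heat shock chaperones had medians of 0.40 and 0.13, and type I interferon-induced genes of 0.27 and 0.23. The days are in separate tables, so a difference between days cannot be told apart from a difference between the tables.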

How the data were processed

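Flow-sorted CD45+ cells were sequenced as 101 bp single-end QuantSeq libraries, which prime from the poly(A) end, so levels were not compared between genes. The authors trimmed reads with Trim Galore 0.5.0, aligned them to GRCm38 with STAR 2.6.0, used Lexogen's tool to collapse molecular identifiers and counted reads per gene with featureCounts. What they deposited are raw counts per gene, not normalized. The strand setting is not given in the sources used here, so counts of overlapping or antisense genes are uncertain. An unnamed line that repeats the column totals (100% of them) was left out, and 234 lines share a symbol with another. Of the per-sample columns, 0 had no sample.

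In 1 fit of the 3 groups of day 3, edgeR 4.0.16 (R 4.3.3) was run with its quasi-likelihood test after TMM scaling and filterByExpr, which used a count of 10 and a total of 15 as its minima. Benjamini-Hochberg adjusted p under 0.05 was the threshold. The difference between days was tested by an interaction term over both days. The study's methods name no test for single genes. The procedure was tested on simulated data. CPM of genes and summed CPM used library totals. A list's score is the mean log2 CPM (prior count 2, TMM-scaled) of its tested genes. Principal components used log10(CPM + 1), the 500 most variable genes and Z-scores, with two-sided exact permutation tests. Coordinates are from GENCODE M21 (GRCm38), matched by symbol for 10092 of 10264 tested genes, and promoters are from RefSeq (GRCm38.p6). Smallest chi-square per degree of freedom between 2 libraries of a group was 2.83 over 27 pairs, so none was taken for a copy of another. Each counted as a replicate, though this value cannot tell whether 2 libraries came from the same mouse.

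The libraries, gene lists and tests were chosen with earlier results of these data known. Named genes were 24 fixed genes, the 12 genes with the smallest p per direction with at least 10 CPM, up to 2 per list, and up to 5 called genes per direction of other comparisons. Some of these are not reported here. Chosen after values were seen were Cox6a2, Ly6d, Pacsin1, Siglech, Bst2, Ccl2, Ccl24, Ccl4, Ccr2, Dnajb1, Dnaja1, Hspa1a, Bag3, Hsp90ab1, Ddx60, Fos, Jund, Arg1, Hp, Pmel, Tyrp1 and Hspd1, members given only by a log2 fold change, and the gene biotypes. Precision is limited by 4 control libraries and by depth. The numbers of the replicates were tried as pairs. Correlations of the deviations from the group means of abscopal and control libraries with the same number were 0.37, 0.11, -0.17 and 0.01. The numbers were thus not taken to pair abscopal with control libraries. Those of treated libraries were not checked. Alternatives were DESeq2 1.42.0, limma-voom (limma 3.58.1) with and without sample quality weights, library totals or median-ratio factors, no filter, a filter of 1 CPM in 4 libraries, fits of only the groups compared, CT010467.1 left out, a replicate block and each replicate left out. After the data were seen, fits without abscopal replicates 1 and 4 and a fit of both days were added.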

Additional observations from a re-analysis of the deposited data

Results flagged for a closer look

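In 21 of 232 groups of values (10 of controls, 11 of abscopal libraries), the highest or lowest library lay far from the rest by Dixon's test at the 95% level, where chance alone gives about 5%. Among controls, replicate 1 was high for Itgax (244 CPM), Hsp90aa1 (2027 CPM) and Mtmr10 (12.5 CPM) and low for Siglech (39.5 CPM) and for the nuclear respiratory chain score (6.62 on the log2 scale). Control replicate 2 was high for Klrb1c (108 CPM) and control replicate 4 for Tnip3 (118 CPM). Control replicate 3 was high for Gm15564 (3442 CPM) and low for Gm48996 (3.92 CPM) and the plasmacytoid dendritic cell score (5.22 on the log2 scale). Among abscopal libraries, the melanoma-rich replicate 4 was high for Mlana (115 CPM), Pmel (250.0 CPM), Tyrp1 (196 CPM) and Adgre1 (74.9 CPM), and the melanoma-rich replicate 1 was low for Dnaja1 (153 CPM). Abscopal replicate 5 was high for Retnla (147 CPM) and Ccl17 (33.8 CPM), replicate 2 for Itgam (499.8 CPM) and replicate 7 for Etv5 (11.9 CPM). Abscopal replicate 3 was low for Cd3e (106 CPM) and replicate 6 for Mtmr10 (9.82 CPM).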

How the results depend on the processing

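With 4 control libraries, the count of called genes between abscopal and control tumors was 0 with edgeR and also with limma-voom, library totals, median-ratio factors, the 1 CPM filter, only the 2 groups, CT010467.1 left out and the melanoma-rich libraries left out. It was 12 with DESeq2, 28 with limma-voom and sample quality weights, 153 with no filter on low counts, 2 in the fit of both days, and between 0 and 1 when 1 library was left out (1 without control replicate 2, Gm42819). The causes were not tested. Genes with an unadjusted p under 0.05, 796 in the report, were 1622 with quality weights, 2189 with no filter, and between 432 (without control replicate 4) and 1066 (without abscopal replicate 5) when 1 library was left out, with 464 without control replicate 3. With the replicate number as a block, 1 gene was called (Pgm2l1) and 1499 had an unadjusted p under 0.05, although the numbers did not pair the libraries and only replicate 1 correlated best with its own number. Genes called between treated and abscopal tumors, 558 in the report, were 497 with that block. Whether the numbers pair treated with abscopal libraries was not checked. The count was 1022 with no filter, 365 with only those 2 groups in the fit, and between 264 (without treated replicate 3) and 862 (without treated replicate 5). The difference between days, with 0 genes, gave 1 with DESeq2, 1 with library totals, 76 with no filter and between 0 and 1 with a library left out. The adjusted p of the third principal component was 0.0364 with TMM-scaled CPM in the exact permutation test.

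Of 93 named genes, 81 kept the sign of their log2 fold change in each alternative. The other 12 were small or rested on 1 or 2 libraries. With 1 library left out, Adgre1 ranged from -0.27 to 0.034, S100a8 from -0.16 to 0.58, S100a9 from -0.14 to 0.63, Cxcl2 from -0.24 to 0.30, Klrb1c from -0.0098 to 0.33, Cd3e from -0.041 to 0.23, Ifng from -0.18 to 0.0052, Pdcd1 from -0.21 to 0.13, Isg15 from -0.20 to 0.10, Mki67 from -0.024 to 0.16 and Gm15564 from -4.22 to 0.65. With the replicate block, Adgre1 was 0.14, Cd3e -0.037 and Isg15 0.033. With library totals, Klrb1c was -0.0050, Cd3e -0.042 and Mki67 -0.034. Without the melanoma-rich libraries, Cxcl2 was 0.18, Ifng 0.031, Pdcd1 0.15, Isg15 0.17 and Tyrp1 -0.16. With limma-voom, Cxcl2 was 0.069, and with quality weights 0.031. Of the 23 lists shown by library, 11 kept the sign of their median throughout, among them those of plasmacytoid dendritic cells, CC chemokines, heat shock chaperones and type I interferon-induced genes. Without the melanoma-rich libraries the median of alternatively activated macrophage markers was -0.92. The alternatives not named here moved these counts by less than 1.5 times.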

Other observations

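Genes of mast cells, basophils and eosinophils were above 0 in each of the 5 members that passed the filter, of 14 on the list, and their median was 0.73 on the log2 scale, 0.44 without abscopal replicate 5 and 0.36 with limma-voom. The mean log2 CPM of these genes was 2.89 to 3.52 in controls and 3.39 to 4.38 in abscopal tumors, where 6 of 7 libraries lay above each control. In treated libraries it was 4.32 to 5.25, and the filter was run over all 3 groups. Members may have passed the filter through the treated libraries, so their shared direction here is not counted as support. Hdc, which makes histamine and is also used by neutrophils, stood at 73.1, 131, 206 and 194 CPM in controls and at 135 to 353 CPM in abscopal tumors (median 224, log2 fold change 0.75, adjusted p = 0.633 with edgeR). Ccr3, the eotaxin receptor of eosinophils, stood at 0, 3.31, 5.89 and 4.08 CPM in controls and at 2.72 to 20.9 CPM in abscopal tumors (median 6.20, log2 fold change 1.07). In treated tumors, 2 of the 5 genes were called higher than in abscopal tumors (against 4.87% of all genes). They were Hdc at 2.0 on the log2 scale (adjusted p = 0.000862, edgeR) and Siglecf, an eosinophil lectin, at 2.31. Hp, which encodes the hemoglobin-binding protein haptoglobin, stood at 103, 91, 109 and 70.3 CPM in controls and at 78.1 to 218 CPM in abscopal tumors (median 161, log2 fold change 0.79), with 6 of 7 libraries above each control. Ngp, a granule protein of immature neutrophils, stood at 0, 0, 9.81 and 3.68 CPM in controls and at 1.81 to 85.2 CPM in abscopal tumors (median 7.76).

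Some classes of genes outside the protein-coding annotation were more often above 0 than protein-coding genes, a grouping chosen after the values were seen. Among transcripts that the annotation lists as still to be checked by experiment (TEC), 217 of 237 were above 0 (median log2 fold change 0.53), and 69 were higher (against 4.94% of all genes) and 0 lower (against 2.82%) at an unadjusted p under 0.05. Small nuclear RNA genes were above 0 in 41 of 46 cases (median 0.48) and antisense genes in 84 of 107 (median 0.33), while protein-coding genes were above 0 in 4551 of 9144 (49.8%). Processed pseudogenes, above 0 in 54.0% of 176 cases (median 0.034), and processed transcripts, in 59.7% of 72 (median 0.074), were closer to the protein-coding genes. The summed level of the TEC genes was 3401 to 5223 CPM in controls and 4527 to 7161 CPM in abscopal libraries, and the groups overlapped. The share of counts in protein-coding genes was 77.7% to 82.7% in controls and 72.3% to 79.7% in abscopal libraries. The TEC median was 0.46 without the melanoma-rich libraries and 0.43 with library totals, and ranged from 0.45 to 0.68 with a library left out. Against the same controls it was 0.66 in treated tumors, and on day 7 it was -0.01 in abscopal tumors. The median rRNA share was also higher in abscopal libraries (11.2%) than in controls (7.29%). In treated libraries it was 9.62%, while their median summed TEC level was 6096 CPM against 5297 CPM in abscopal libraries. The part of the rRNA share in the TEC pattern was not tested.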
